A study of Mus musculus with 2 samples.

Results

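The genes described here shape the mitochondrial network. They comprise 30 nuclear genes whose products fuse or divide mitochondria, fold the inner membrane into cristae, or carry mitochondria along microtubules, out of 37074 gene names on the array. They were taken by symbol from a list of known members. Probes that name them were found for all 30 genes, and each gene had at least 1 probe well above background on both arrays, so no member was lost to the filter on dim probes.

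RNA came from unfertilised oocytes of C57BL/6 mice, with 213 oocytes in the pool labelled MUL1 +/+ (wild type) and 123 in the pool labelled MUL1 -/- (knockout). Mul1 encodes a ubiquitin and SUMO ligase of the mitochondrial outer membrane. Each pool was hybridised to 1 single-colour Agilent array. The labels do not state how many mice gave each pool, which part of Mul1 was deleted or whether the deletion was limited to the oocyte. With 1 array per genotype there is no replicate, so no test was made, and all differences compare these 2 arrays.

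Mitochondria join and divide continually. Outer membranes fuse through the mitofusins Mfn1 and Mfn2 and inner membranes through the dynamin-like GTPase Opa1, while division needs the GTPase Dnm1l, which adaptor proteins on the outer membrane recruit from the cytosol. MICOS, a protein complex at the neck of each crista, keeps the folds of the inner membrane in place. Miro GTPases (Rhot1 and Rhot2) and Trak adaptors link mitochondria to kinesin and dynein. In oocytes mitochondria are small and round with few cristae, are inherited from the mother, and move around the nucleus and spindle during maturation. The protein of Mul1 is known to act on Mfn2 and Dnm1l.

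The array reads each gene through probes of 60 bases or nearly so, and 74 probes named the 30 genes. Of these, 66 were well above background on both arrays, 7 on neither and 1 on the wild-type array alone, and no spot was saturated or marked as an outlier. RefSeq transcripts were the stated targets of 54 of the 66 measured probes, and Ensembl or GenBank entries of the other 12. Of the 8 probes that were not measured on both arrays, 7 were for such other entries, out of 19 in all. For 7 of the measured probes the positions given on mouse build mm9 spanned more bases than the probe holds, so these probes cross at least 1 splice junction and read spliced RNA. The exons of that build were not looked up. Of these, 5 are shown whole, for genes of fusion, fission, cristae and transport whose values are given in detail, and each was read 5′ to 3′ from the scanner file with no part marked by capitals.
Opa1, for NM_133752, at chr16:29629784-29630207: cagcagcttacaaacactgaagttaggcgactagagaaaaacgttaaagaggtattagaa
Fis1, for NM_025562, at chr5:137441507-137441812: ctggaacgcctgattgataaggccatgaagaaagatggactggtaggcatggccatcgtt
Mff, for AK184380, at chr1:82727811-82743670: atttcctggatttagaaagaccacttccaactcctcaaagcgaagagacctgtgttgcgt
Immt, for NM_001253689, at chr6:71807005-71811018: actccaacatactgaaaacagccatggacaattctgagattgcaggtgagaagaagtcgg
Rhot2, for NM_145999, at chr17:25980059-25980898: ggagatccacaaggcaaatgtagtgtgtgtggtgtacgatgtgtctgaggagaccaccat

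For Apool, Immt, Yme1l1 and Rhot1, whose values move with the choice of probe, the first 30 bases of probes that parted are shown. Probes of some other genes parted too and are not shown, among them those of Mief1, at -0.21 and 0.24. The mm9 positions are those of the whole probe.
Apool, for NM_026565, at chrX:109485952-109486011: gtgaaaaatcacataatgaacgggtaactg
Apool, for ENSMUST00000154378, at chrX:109462024-109462083: tgcatttcatcttcaatgtaaacaactttt
Apool, for AK020156, at chrX:109425499-109425558: catagtgttattccccgtcgaataaccagt
Immt, for NM_029673, at chr6:71824730-71824789: tcctattgtattgagcatggtgacctggag
Immt, for ENSMUST00000167244, at chr6:71805061-71805120: tttcattcttctgacatgagttccttggtt
Yme1l1, for NM_013771, at chr2:23052695-23052754: gattttggttattcctgtgatgataccatt
Yme1l1, for ENSMUST00000125004, at chr2:23031629-23031688: ggagttgtttgcagagtagagagtgtcgac
Rhot1, for NM_001163355, at chr11:80080173-80080232: ctgtatctggccaggataacctagaggcaa
Rhot1, for BC055823, at chr11:80023838-80023897: agtagcctctctaggtcgctgtgatacatt

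Both arrays came from the same slide. Over the whole array 37369 probes were well above background for the wild type and 36488 for the knockout, of 56600, and 22921 genes were measured on both, with a median difference of 0.03. Mul1 itself read 3353 (wild type) and 1074 (knockout) at its RefSeq probe, a log2 difference of -1.61, and 19.3 and 23.1 at a dim probe for an Ensembl transcript, a difference of 0.29. Whether either probe lies in the deleted part is not stated, so these values do not by themselves check the labels. All 10 oocyte markers examined were measured on both arrays, with a median difference of 0.18 and a range from -0.21 for Dppa3 to 0.94 for Ooep. So were all 10 cumulus and granulosa markers, with a median difference of 0.23, and all 4 oviduct markers, with a median of 0.58. All 10 blood and immune markers were measured too, with a median of 1.60. Of these, 7 were higher on the knockout array by 2-fold or more and 2 lower by as much, from -1.62 for Hba-a1 to 2.02 for Tyrobp. Summed over each list, the signals of the wild-type and knockout arrays were 120281 and 111140 for oocyte, 162482 and 173452 for cumulus and granulosa, 35012 and 37214 for blood and immune, and 76606 and 118883 for oviduct markers. Such sums weigh bright probes most, and the oocyte sum was lower on the knockout array though the median oocyte difference was above 0. For the same reason, the close blood and immune sums do not mean that those markers were equal. The genes of mitochondrial shape are active in most cells, and the part that RNA of such other cells has in their values was not tested. In pools of whole cells, fewer cells of a type and less RNA per cell cannot be told apart.

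Every value below is the processed signal, the scanner software's brightness of a spot after background subtraction. A difference is the log2 signal of the knockout array minus that of the wild-type array, with both expressed relative to the 75th percentile of the array's own probes (signals of 808 and 790). Scaling on the spike-in controls instead adds 0.13 to every difference, so that members between -0.13 and 0 lie above 0 on that scale. A gene's signal and difference are means over its measured probes on the log scale. Signals of different probes depend on the probe and are not compared with each other.

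The network genes were close to equal on the arrays. None of the 30 was at least 1.5-fold apart, against 13.0% of all 22921 genes measured, and at 2-fold again none, against 4.29% (2.92% higher and 1.37% lower). Within 1.25-fold of equal lay 29 genes, against 69.5%, or 25 against 64.2% on the spike-in scale. Bright genes are closer to equal in general. With all genes divided by signal into 5 equal classes, 88.7% of genes lay within 1.25-fold in the brightest class, which held 11 of the 30, 80.0% in the next, which held 13, 70.3% in the middle one, which held 4, and 59.1% in the one below, which held 2. None of the 30 fell in the dimmest class. Genes at least 1.5-fold apart are fewer in the bright classes too. Of 4584 genes in the brightest class, 75 were higher and 80 lower by that rule, and of 4584 in the next, 132 and 159. The median difference of the 30 was 0.04, with 20 genes above 0 and 10 below, where 54.8% of all genes were above 0. The range ran from -0.58 for Afg3l2 to 0.31 for Trak2, and both ends lay inside the central 90% of all genes, which spans -0.59 to 0.76. That span is widened by dim genes. In the second brightest class, which held both Afg3l2 and Trak2, the central 90% spans -0.48 to 0.44. Trak2 lay inside that narrower span and Afg3l2 below it.

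**Figure D1:**
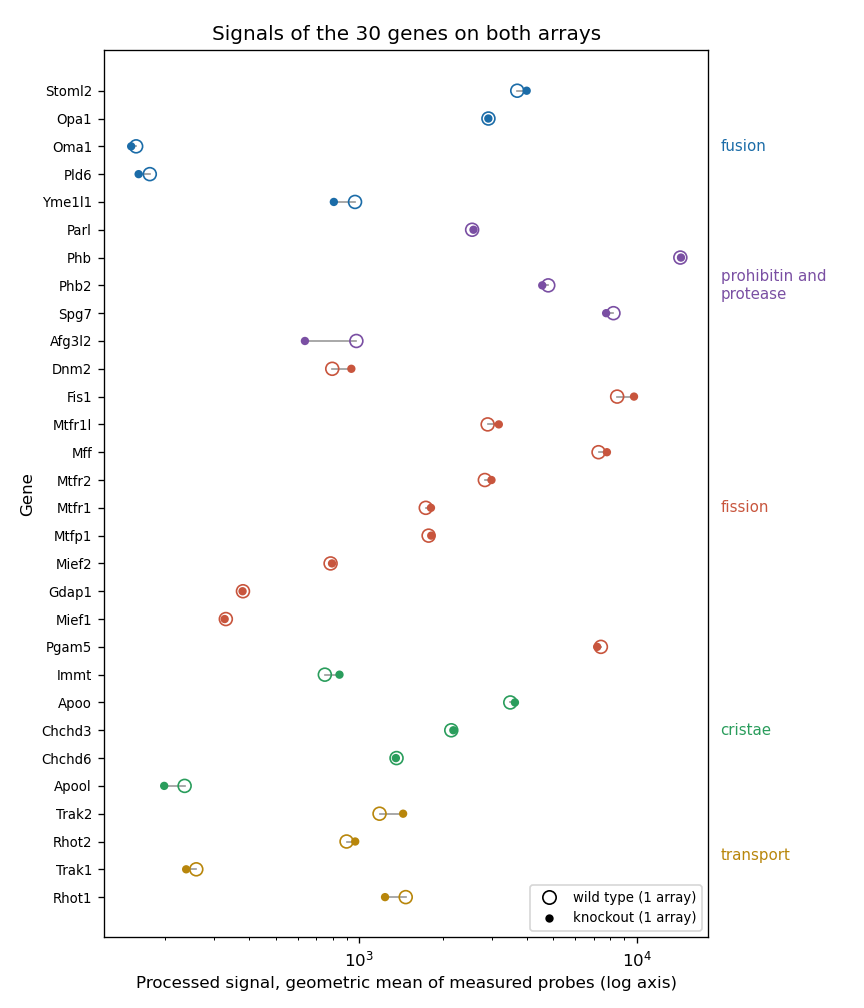
Processed signal (log axis) of each of the 30 genes on the wild-type array (open circle) and the knockout array (filled circle), as the geometric mean of the measured probes, with 1 array per genotype and genes coloured by role. Circles coincide for Opa1 and Phb, and the widest gap is that of Afg3l2, at 975 and 636. Positions can be compared along a row and not between rows.

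Inner-membrane fusion genes stayed near equality. Opa1, the GTPase that fuses inner membranes and tightens cristae, read 2273 in the wild type and 2228 in the knockout at its junction probe, a difference of 0.00, and 3740 and 3808 at its other RefSeq probe, a difference of 0.06. Both values are far below the error of 0.20 that the scanner software's signal errors give for the difference of a bright probe. That error is nearly the same for every bright probe. It serves as a nearly fixed limit and is not a spread measured at the probe. A further Opa1 probe, for an Ensembl transcript, was not above background on either array.

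Proteases and partners of Opa1 spread a little more widely. Oma1, the stress-activated protease that cuts Opa1, read 753 and 683 at its RefSeq probe (difference -0.11) and 32.7 and 33.2 at a dim probe (0.05). Yme1l1, the protease that cuts Opa1 at a second site, had the lowest gene value of the fusion group, -0.22. Its RefSeq probes read 4554 and 4221, and 2149 and 2008, with differences of -0.08 and -0.07, and only the dim Ensembl probe, at 91.6 and 62.4, differed by more (-0.52). The gene value therefore rests on the probe with the least signal, and the brightest probe alone gave -0.08.

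Stoml2, a scaffold that binds prohibitins and stabilises Opa1, was the highest of this group. It read 8816 and 9657, and 1555 and 1660, at its RefSeq probes, with differences of 0.16 and 0.13, so both probes were higher on the knockout array and both by less than their error of 0.20. Pld6, a mitochondrial phospholipase known for fusion and for piRNA production in the germ line, read 176 and 160 at the probe measured (difference -0.10), while its other probe was not above background on either array. The fusion group of 5 had a median of -0.03, which became 0.11 on the scale of the spike-in controls, with 2 genes above 0.

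Prohibitins and inner-membrane proteases control the quality of that membrane and the processing of Opa1. The prohibitin genes, whose proteins form a ring-shaped scaffold, were nearly identical on the arrays. Phb read 16784 and 16708, and 12219 and 12408, at probes that overlap each other, with differences of 0.03 and 0.05. Phb2 read 19198 and 19216 at a junction probe (0.03) and 1194 and 1080 at a probe for an Ensembl transcript (-0.11). Parl, the rhomboid protease that cleaves Pink1 and Pgam5, read 4702 and 5036 at its junction probe, 3565 and 3568, and 985 and 951, with differences from -0.02 to 0.13.

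Afg3l2 stood lowest of all 30 genes. It encodes a subunit of the m-AAA protease, in which it can assemble with Spg7. Its brighter RefSeq probe read 4578 in the wild type and 3421 in the knockout, a difference of -0.39 with a scanner error of 0.20. The dimmer RefSeq probe read 208 and 118, a difference of -0.78 with an error of 0.21, and was the only one of the 66 measured probes at least 1.5-fold apart, against 13.8% of all 35255 measured probes. That share depends on signal. Of 13719 probes above the 75th percentile of both arrays, 207 were higher and 290 lower by this rule. Of 21536 dimmer probes, 2387 were higher and 1968 lower. Among the 66 probes, 46 were of the brighter kind. Both Afg3l2 probes were thus lower on the knockout array. The gene value of -0.58, or 1.498-fold lower, lay just short of the 1.5-fold rule and was lower than 94.8% of the genes measured. It passed the rule after loess, at -0.59. Some alternatives left it nearly unchanged, at -0.58, and others moved it further from the rule. Afg3l2 was at -0.47 after normexp, -0.45 on the spike-in scale and -0.39 with its brightest probe. Its partner Spg7 did not share that size, with signals of 22543 and 20814 and of 2999 and 2877 and differences of -0.08 and -0.03. The group of 5 had a median of -0.04, or 0.09 on the spike-in scale.

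Fission genes lay mostly above 0, each by a small amount. The median over the 11 genes was 0.09, with 10 above 0, and 8 above the median of all genes. Fis1, an outer-membrane adaptor, read 2991 and 3669 at its junction probe, a difference of 0.33, and 24046 and 25916 at its other RefSeq probe, a difference of 0.14. The first is 1.61 times its scanner error and the second less than its error, so the probes share a direction and not a size.

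Mff, the main recruiter of Dnm1l, was read by more measured probes than any other fission gene. Its 4 measured probes read 20157 and 21221, 8711 and 8983, 5132 and 5855, and 3095 and 3298 on the wild-type and knockout arrays, with differences of 0.11, 0.08, 0.22 and 0.12. All 4 were higher on the knockout array, and the junction probe shown above was among them. Another probe, for an Ensembl transcript, was above background on the wild-type array alone, at 22.5 against 9.13, which is at least 1.39-fold higher in the wild type when set against the lowest signal well above background on the knockout array.

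The receptors Mief1 and Mief2, which bind Dnm1l and hold it on the outer membrane, showed no common direction. Mief1 read 3872 and 3279 at its bright RefSeq probe, a difference of -0.21, and 28.2 and 32.6 at its dim RefSeq probe, a difference of 0.24, so its gene value of 0.02 averages probes on opposite sides of 0. Mief2 read 787 and 797, a difference of 0.05. Dnm2, a dynamin that pinches endocytic vesicles and has been studied for a part in the last step of fission, had the highest value of the group at 0.26. Its probes read 10301 and 11459, 566 and 682, and 87.2 and 105, with differences of 0.19, 0.30 and 0.30.

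The remaining fission genes had values from -0.01 to 0.17. Mtfr2, a promoter of fission, read 51473 and 54363, and 156 and 164, and both probes gave 0.11. Mtfr1l read 10932 and 10857, 2089 and 2353, and 1065 and 1256, with differences of 0.02, 0.20 and 0.27, the brightest probe being nearest to equality. Mtfr1 read 3364 and 3336, and 894 and 982 (0.02 and 0.17). Mtfp1, an inner-membrane protein that promotes division, read 1775 and 1814 (0.06), and its Ensembl probe was not above background on either array. Gdap1, an outer-membrane fission factor known from inherited neuropathy, read 1969 and 2052, and 73.6 and 70.1 (0.09 and -0.04). Pgam5, a phosphatase of Dnm1l, read 7409 and 7185 and was the 1 member of the group below 0, at -0.01.

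**Figure D2:**
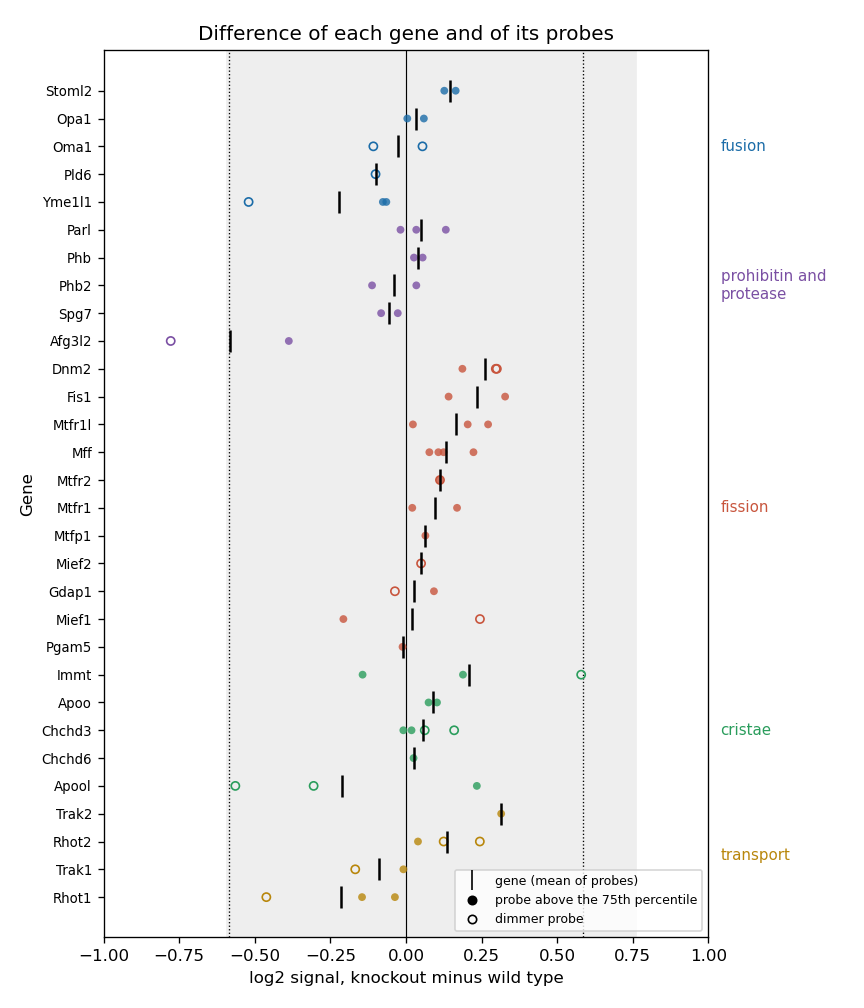
Log2 signal of the knockout array minus the wild-type array for each gene (bar, mean of its measured probes) and for each probe (filled where the probe is above the 75th percentile of all probes on both arrays, open where dimmer). Dotted lines mark 1.5-fold and the grey band the central 90% of all genes measured, and no gene bar passes a dotted line. Fission genes lie mostly just right of 0, and the points farthest from 0 are open circles, for Afg3l2, Immt, Apool, Yme1l1 and Rhot1.

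Cristae genes encode subunits of MICOS. Chchd3 read 11261 and 10941, and 7991 and 7911, at its RefSeq probes, with differences of -0.01 and 0.02, and 571 and 583, and 410 and 447, at probes for a GenBank transcript (0.06 and 0.16). Chchd6 read 1361 and 1353 (0.02), and Apoo read 4757 and 4897, and 2568 and 2695 (0.07 and 0.10). For these 3 subunits every measured probe differed by less than its scanner error.

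The other MICOS genes had probes that disagreed. Immt, which encodes mitofilin, the core subunit of the complex, read 3774 and 4204 at one RefSeq probe (0.19), 1542 and 1365 at the junction probe (-0.14), and 72.6 and 106 at an Ensembl probe (0.58). Its gene value was 0.21, and 0.02 over the probes above the 75th percentile alone. Apool read 2165 and 2490 at its RefSeq probe (0.23), 106.8 and 70.6 at the Ensembl probe (-0.56), and 55.9 and 44.2 at the GenBank probe (-0.31). Its gene value of -0.21 therefore has the opposite sign to its brightest probe. These were the 2 genes of 30 whose measured probes lay 0.5 or more apart, and both have sequences printed above. The group of 5 had a median of 0.06, with 4 genes above 0.

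Transport genes lay on both sides of 0. Among the Miro GTPases, Rhot1 was lower on the knockout array at all 3 measured probes, with signals of 7009 and 6194, 4863 and 4634, and 92.9 and 65.9, with differences of -0.15, -0.04 and -0.46. Rhot2 was higher at all 3, reading 4229 and 4249, 743 and 792, and 231 and 268, with differences of 0.04, 0.12 and 0.24. Gene values were -0.21 for Rhot1 and 0.14 for Rhot2. In both genes the dimmest probe lay farthest from equality.

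Of the adaptors that join Miro to motor proteins, Trak2 had the highest value of all 30 genes. Its single probe read 1182 in the wild type and 1437 in the knockout, a difference of 0.31 with an error of 0.20, so the size is 1.54 times the error and no other probe checks it. Trak1 read 1986 and 1930 at its bright probe (-0.01) and 33.6 and 29.3 at a dim one (-0.17), and another 2 probes were not above background on either array. The group of 4 had a median of 0.02, with 2 genes on each side.

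Probe by probe, differences were larger at lower signals. The 46 measured probes above the 75th percentile of both arrays ran from -0.39 to 0.33 with a median absolute difference of 0.09, and the 20 dimmer ones from -0.78 to 0.58 with 0.21. Over all probes the same medians were 0.12 and 0.27, so the widening at low signal is general to the arrays. Of the 66 probes, 50 (75.8%) differed by less than 1 scanner error, against 55.5% of all probes. Shares over all probes are not matched for signal here, since dimmer probes were 21536 of all 35255 but 20 of the 66. Beyond 2 errors lay 1 probe on the higher side, for Immt, where 10.2% of all probes did, and 4 on the lower side, for Afg3l2, Apool, Yme1l1 and Rhot1, where 9.41% did. Except for that of Afg3l2, those 5 probes were for Ensembl or GenBank transcripts, and none was brighter than 208 on either array. Among 24 genes with several measured probes, 16 had all of them on one side of 0 and 8 did not, and the median distance between a gene's highest and lowest probe was 0.15.

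**Figure D3:**
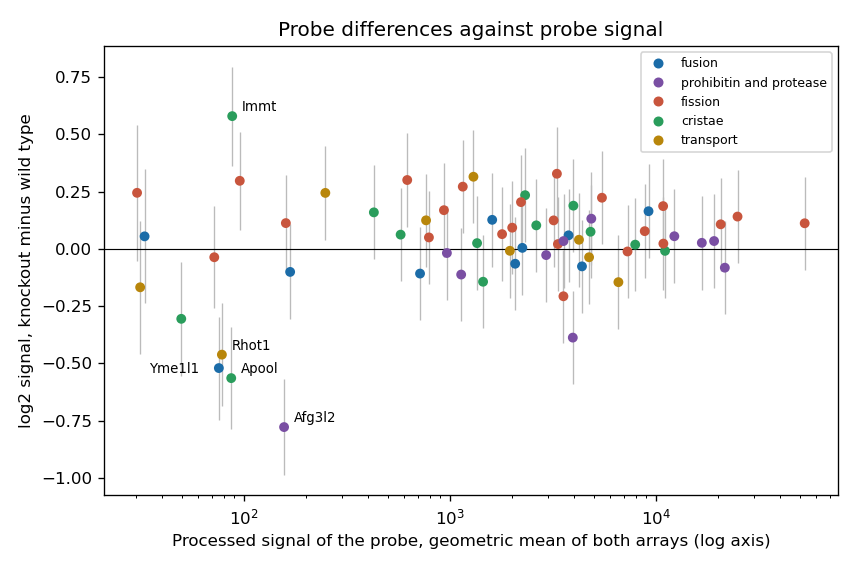
Log2 difference of each of the 66 measured probes, knockout minus wild type, against its processed signal (log axis, geometric mean of both arrays), coloured by role, with bars of 1 scanner error. These errors are given by the scanner software, are nearly the same for all bright probes, and do not describe variation between animals. The 5 named probes lie beyond 2 errors, and all of them sit at the dim end.

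The other genes of the pathway were a list of 40 that holds none of the 30. Within 1.25-fold of equal lay 34 of them, against 29 of the 30, and the fission genes of the 2 lists differed in direction. All 40 were measured, with a median of 0.04. Of these, 1 was at least 1.5-fold higher, where 7.84% of all genes were, and 1 at least 1.5-fold lower, where 5.19% were. The lower one was Mul1 itself (-0.66 over both its probes), and the higher one was Armcx1, an outer-membrane protein that promotes mitochondrial transport in neurons, with signals of 910 and 1528 and a difference of 0.78 at a single probe. The mitofusin genes stayed close to equal. Mfn1 read 3246 and 3468, and 120 and 125 (0.13 and 0.09), and Mfn2 read 1626 and 1499, 668 and 775, and 40.0 and 41.0 (-0.09, 0.25 and 0.07).

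Dnm1l, the GTPase that the fission adaptors recruit, was slightly lower. It read 7565 and 6951 at its bright probe (-0.09) and 45.0 and 37.8 at a dim one (-0.22). Its gene value was -0.15, or -0.02 on the spike-in scale. Of the adaptors, Fis1 and Mff were slightly higher at every measured probe, Mief2 was near equal, and Mief1 had probes on both sides of 0. In the list of further fission genes 7 of 8 lay below 0, with a median of -0.19. With the brightest probe of each gene 4 of 8 did, with a median of -0.01, with the median of a gene's probes 5 of 8 (-0.09), on the spike-in scale 5 of 8 (-0.05), and without a filter on dim probes all 8 (-0.22). All of these counts and medians include Mul1 itself (-0.66), the gene knocked out, whose lower value is not a result about the other fission genes. Further fusion genes had a median of 0.08 with 6 of 7 above 0, further cristae genes 0.02 with 8 of 12, and further transport genes 0.15 with 9 of 13. The lowest further cristae gene, Tmem11, read 15166.5 and 10076.8 at a single bright probe, a difference of -0.56.

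**Figure D4:**
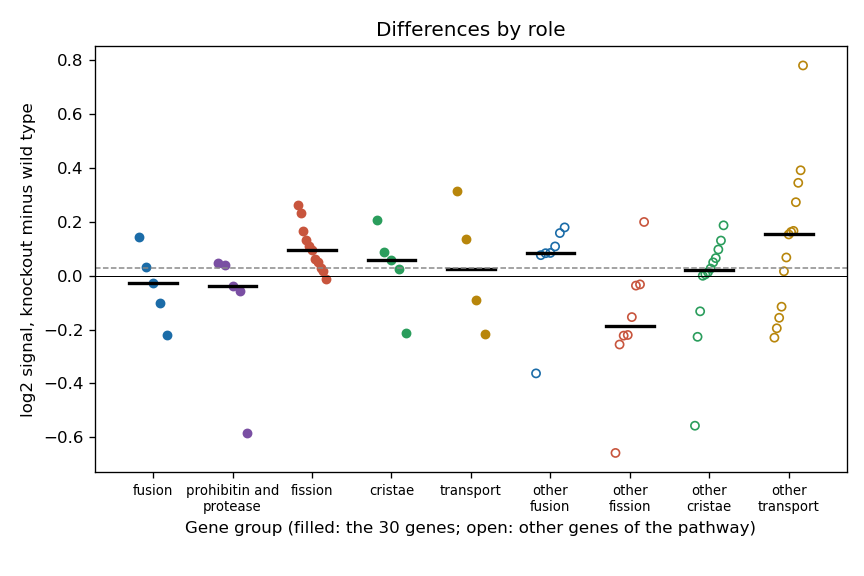
Log2 difference, knockout minus wild type, of each gene by role, for the 30 genes (filled) and for the other genes of the pathway (open). Black bars are group medians and the dashed line the median of all genes measured, 0.03. The medians of the 5 filled groups lie between -0.04 and 0.09, and the lowest bar, -0.19, is that of the further fission genes, whose lowest point is Mul1. With the brightest probe of each gene that median was -0.01, and the fusion median, at -0.08, was below it.

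Set side by side, the medians were 0.09 for fission, 0.06 for cristae, 0.02 for transport, -0.03 for fusion, and -0.04 for prohibitins and proteases. The distance of 0.12 between fission and fusion has no replicate check. The groups overlapped, since the fusion gene Stoml2 at 0.15 exceeded 8 of the 11 fission genes. The fission median stayed above 0 under all 13 other ways of processing, between 0.05 and 0.23, which all reuse the same pair of arrays, while the number of fission genes above 0 ran from 8 to 11. Scaling on the spike-in controls moved the median of all genes from 0.03 to 0.16 and every member with it, so that the fusion median and the prohibitin and protease median were above 0. The latter was also above 0, at 0.03, with the brightest probe of each gene, and the fusion median was 0.03 when Oma1 and Yme1l1 were counted among the proteases instead. Relative to the median of all genes, the fission median was 0.07 above on both scales, and without a filter on dim probes it differed by -0.06.

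Promoter sequences were looked up to see what the genes share beyond their function. The RefSeq table of build GRCm38.p6, with windows from 250 bases before to 50 bases after a gene's start, held 26 of the 30 genes, and Afg3l2, Gdap1, Mtfr1 and Pgam5 were without an entry. The palindrome made of GCGCA and its reverse complement TGCGC, the core bound by NRF1, a transcription factor of nuclear genes for mitochondrial proteins, was found in 2 of 26, against 1.47% of 17492 protein-coding genes. The ETS core CCGGAAG, searched on both strands as CCGGAAG or CTTCCGG, was found in 10 of 26, against 12.9%. The 10 were Chchd3, Fis1, Immt, Mief1, Mtfr1l, Parl, Phb2, Rhot2, Stoml2 and Yme1l1. The letters of these motifs do not overlap. The protein-coding genes compared were not matched to the members for signal or for mitochondrial function. A match describes the letters and is not a binding site. The NRF1 matches are shown in capitals within 30 bases of the plus strand.
Opa1, chr16:29579265-29579294: gtggctccccGCGCATGCGCatgtcatccg
Mtfr2, chr10:20347681-20347710: ggggcacggtGCGCATGCGCctttcgaatg
The genes with these motifs did not stand out on the arrays, with differences of 0.03 for Opa1 and 0.11 for Mtfr2, and from -0.22 for Yme1l1 to 0.23 for Fis1 among those with the ETS core.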

How the data were processed

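Each deposited scanner file gives the intensity of its spots without a log, background-subtracted and detrended within each array by Agilent Feature Extraction 10.7.1.1, per the file headers (the submitters' processing notes name 9.5.1.1), with flags for spots well above background, and other values such as the control type, also as deposited. The authors' series-wide table holds intensity normalised between the arrays, and served as an alternative. Per the labels' protocols, RNA was amplified with a kit for small inputs and given a Cy3 label, which can distort ratios of abundant to rare transcripts.

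Log2 signals were averaged over spots of a probe without outlier spots, each array's 75th percentile was subtracted, and a gene was the mean of its probes well above background on both arrays (lowest such signals 12.9 and 15.8). Probes were named by the file's gene symbol, and 6 of the other pathway genes by an older symbol. The error of a difference combines the scanner software's signal errors. Over the measured member probes it ran only from 0.20 to 0.30, and it was 0.20 for all bright ones. For 296 probes printed at 10 spots each the median SD between spots of the log2 difference was 0.04. With 1 array per genotype no test was made, and precision is limited by having so few arrays. The scaling and gene steps were tested on simulated data with planted shifts of 2-fold or more, larger than any member difference reported here. That simulation did not test smaller differences or the filter on both arrays.

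Members, lists and roles were chosen with earlier results of these data known. All 30 members are named. The 1.25-fold limit and the promoter motifs were chosen after values were seen. Placing probes in the protein was planned and could not be done with the tables used here, so 30 bases, or whole junction probes, are shown. Alternatives used Python 3.11.15, R 4.3.3 and limma 3.58.1 and were other scalings (median, quantile, loess with span 0.3, spike-in controls), normexp with offset 50, the authors' values, other filters, other ways to combine probes, outlier spots kept, RefSeq names and other divisions into roles.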

Additional observations from a re-analysis of the deposited data

How the results depend on the processing

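No paired analysis was possible because each genotype has 1 array. The median over the 30 genes ran from 0.03 to 0.18 over the alternatives. The signs of small values were not stable. The fusion median ran from -0.08 to 0.11 and that of prohibitins and proteases from -0.06 to 0.09, while the fission, cristae and transport medians stayed above 0. Of the 30 genes 12 changed sign under at least 1 alternative, namely Apool, Chchd3, Chchd6, Mff, Mief1, Mtfp1, Oma1, Pgam5, Phb2, Pld6, Spg7 and Trak1, with 6 of them on the spike-in scale, 4 with the brightest probe and 4 with dim probes included. The number of genes at least 1.5-fold apart, 0 in the reported values, was 1 after loess, where Afg3l2 passed at -0.59, and 1 without a filter on dim probes, where Mtfp1 read -0.85 through a probe not above background on either array. At 2-fold none passed. Afg3l2 ran from -0.59 to -0.39 over the alternatives. The largest moves, above 0.32, the SD between probes of a gene, were those of Mtfp1, Trak1 (0.24) and Pld6 (-0.45) without a filter, and of Apool with its brightest probe (0.23). Using the probes above the 75th percentile alone, an alternative chosen after seeing the data, measured 27 genes, with a median of 0.04. Probes near background have the largest scanner errors, and how far arrays of the same genotype would differ was not measured.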
